A study of Sus scrofa with 26 samples.

Results

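The genes described here encode the enzymes that carry pyruvate into mitochondrial metabolism. They are PDHA1 and PDHB, the alpha and beta chains of the E1 component of the pyruvate dehydrogenase (PDH) complex, DLAT, its E2 component, DLD, its E3 component, the PDH kinases PDK2 and PDK4, and pyruvate carboxylase (PC). Members were found by gene symbol, in any case, by the accession printed with each probe or by its description, among the non-control probes of a porcine oligonucleotide array. All 7 genes were on the array, out of 11574 genes that could be named. They had 39 of its 60305 probes, with 5 probes for PDHA1, 2 for PDHB, 3 for DLAT, 11 for DLD, 3 for PC, 3 for PDK2 and 12 for PDK4. Of these, 38 were well above background on at least 8 arrays and were tested, and 37 were well above background on all 26. The DLD probe A_72_P308718 was not tested.

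Subcutaneous adipose tissue (SCAT) of growing castrated male pigs was measured on one-colour arrays, 1 array per pig. The groups were Creole at thermoneutrality (TN, n = 3) and under heat stress (HS, n = 5), the F1 cross of Large White and Creole (TN, n = 4, and HS, n = 5) and Large White, or LW (TN, n = 4, and HS, n = 5), which gives 11 TN and 15 HS arrays. All pigs entered a climatic room at 11 weeks of age and had free access to feed, and no pair-fed group was part of the design. TN was 24 °C. HS is labelled 30 °C on the samples and 32 °C for 5 days in the text of the series. TN pigs were slaughtered before the temperature rose and HS pigs after it, so temperature, day of slaughter and age cannot be told apart. The paper reports lower feed intake under HS, and that cannot be told apart from temperature either. Littermates were spread over pens, but pen and litter are not in the labels, and pigs were treated as independent.

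Pyruvate is the end product of glycolysis. In the mitochondrion the PDH complex turns it irreversibly into acetyl-CoA, while PC, a biotin enzyme, turns it into oxaloacetate. In white adipose tissue both products combine to citrate, which is exported to the cytosol and cleaved to supply acetyl-CoA for fatty acid synthesis. PDH kinases phosphorylate the E1 alpha chain and switch the complex off, and PDK4 is known for being induced by fasting and fatty acids.

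The probes are 60 bases long, and several genes are read by probes on different parts of the transcript. The sequences shown are from 6 of the 7 genes and let probes of 1 gene be told apart, as the array prints them and 5′ to 3′. They were taken from probes with a reading frame free of stop codons before the last codon. Some of them passed the test and some did not, and none is a representative probe. In the PC probe the capitals mark a TGA stop codon that ends an otherwise open reading frame, and no other letters are in capitals.
PDHA1 A_72_P645767: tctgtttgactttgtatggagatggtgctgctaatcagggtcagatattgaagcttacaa
PDHA1 A_72_P086206: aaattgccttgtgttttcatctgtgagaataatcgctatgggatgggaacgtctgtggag
DLAT A_72_P468917: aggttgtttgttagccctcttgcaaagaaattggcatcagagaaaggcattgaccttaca
DLD A_72_P616219: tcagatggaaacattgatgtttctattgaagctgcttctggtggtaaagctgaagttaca
PDK2 A_72_P383353: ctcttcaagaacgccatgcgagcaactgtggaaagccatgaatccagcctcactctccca
PDK4 A_72_P227202: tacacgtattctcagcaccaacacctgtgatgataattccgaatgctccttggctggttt
PC A_72_P303224: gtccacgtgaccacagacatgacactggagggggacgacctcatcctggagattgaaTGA

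On each array, 68.5% to 76.6% of probes were well above background and no spot of any array was saturated. The precision depends on the number of arrays. All 9 adipocyte markers, among them ADIPOQ, PLIN1, FABP4 and LEP, were well above background on all 26 arrays. Among 8 marker lists, scores of 2 differed between temperatures by a permutation test within breeds. The red blood cell score, from the 5 measured genes of 11, was 0.32 lower on the log2 scale in HS (adjusted p = 0.0102), running from -0.03 to 0.57 on TN arrays and from -0.49 to 0.37 on HS arrays. In that list HBB changed by -0.85 (adjusted p = 0.011) and EPB42 by -0.38 (adjusted p = 0.0294) in limma. AHSP was not called at -0.47 (adjusted p = 0.0521). ALAS2 and SLC4A1 had the opposite sign and were not called, at 0.043 (adjusted p = 0.884) and 0.058 (adjusted p = 0.71). The fibroblast and matrix score was 0.27 higher in HS (adjusted p = 0.0276), with 4 of its 8 genes called higher. With scaling to the 75th percentile instead of quantile normalisation these scores had adjusted p of 0.0542 and 0.0840. The adipocyte score differed by -0.05 (adjusted p = 0.434), with 1 of its 9 genes called higher and 1 called lower. By limma these were ADIPOQ at 0.16 (adjusted p = 0.0384) and CIDEA at -0.43 (adjusted p = 0.000234). One array, Creole HS replicate 5, stood apart from the other Creole HS arrays for several members, and calls that changed without it are given both ways. In bulk tissue, fewer cells of a type and less RNA per cell cannot be told apart.

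Levels are log2 of the quantile-normalised median spot intensity, and each gene is represented by its brightest tested probe. HS minus TN differences are adjusted for breed and LW minus Creole differences for temperature. The adjusted p-values are those of limma, with Benjamini-Hochberg adjustment over 44703 probes, and 0.05 was the threshold. Levels of different probes cannot be set against each other.

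PDHB, the beta chain that forms the E1 tetramer with PDHA1, had the largest HS minus TN difference among the representative probes of the members. PDHB levels on its probe A_72_P407943 were 15.83, 15.82 and 15.60 in Creole TN pigs and 15.47, 15.27, 15.33, 15.17 and 13.56 in Creole HS pigs. In the cross, PDHB read 15.36, 14.97, 15.86 and 15.49 at TN and 15.24, 14.05, 14.60, 15.74 and 15.59 under HS. LW pigs gave PDHB levels of 15.005, 15.30, 15.21 and 14.80 at TN and 13.90, 13.98, 13.85, 14.11 and 13.94 under HS. All HS pigs lay below all TN pigs of their breed in Creole and in LW, while the temperatures overlapped in the cross. The 5 LW HS pigs lay closest together, and Creole HS replicate 5 had the lowest single level. PDHB was lower in HS, by -0.76 ± 0.19 (SE, 95% confidence interval -1.16 to -0.37, adjusted p = 0.0105) on the log2 scale, and 13 of 15 HS arrays lay below the TN mean of their breed. The other PDHB probe, O12377, followed it across arrays (r = 0.96 over 26 arrays) and changed by -0.51 (adjusted p = 0.0013). LW pigs were below Creole pigs by -0.85 ± 0.23 (SE, 95% confidence interval -1.34 to -0.37, adjusted p = 0.0159), with 9 of 9 LW arrays below the Creole mean at the same temperature. Without Creole HS replicate 5 the temperature difference was -0.66 (adjusted p = 0.00679) and the breed difference -1.05 (adjusted p = 0.000692). By group mean, Creole TN came first with 15.75 ± 0.13 (SD, n = 3) and LW HS last with 13.96 ± 0.098 (SD, n = 5). Only the step from Creole HS (14.96) to LW HS exceeded the larger SD of the neighbours.

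PDHA1, the E1 alpha chain that the kinases phosphorylate, was read by 5 probes that fell into 2 sets. The brightest, A_72_P020186, followed O10316 (r = 0.91 over 26 arrays) but not the remaining 3, A_72_P513752, A_72_P645767 and A_72_P086206 (r = -0.19, -0.032 and -0.077). Those 3 derive from the same pig cDNA record and followed each other with r from 0.96 to 0.99. On A_72_P645767, whose sequence is shown above, PDHA1 levels were 11.53, 11.74 and 11.49 in Creole TN pigs and 11.43, 11.29, 11.45, 11.42 and 10.998 in Creole HS pigs. F1 pigs had PDHA1 levels of 11.98, 11.99, 12.47 and 11.34 at TN and 10.94, 11.39, 11.84, 11.55 and 11.41 under HS on the same probe. For LW pigs it read 11.53, 12.04, 10.97 and 10.89 at TN and 10.86, 10.52, 10.54, 10.78 and 11.03 under HS. Temperatures did not overlap in Creole pigs, by a narrow gap, and overlapped in F1 and LW, yet all 15 HS arrays lay below the TN mean of their breed. The change under HS was -0.48 ± 0.13 (SE, 95% confidence interval -0.74 to -0.22, adjusted p = 0.0142). A_72_P086206 changed by -0.46 (adjusted p = 0.0158), and A_72_P513752 by -0.40 (adjusted p = 0.0505), past the threshold only under some alternatives.

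On the brightest PDHA1 probe, A_72_P020186, the pattern was different. It read 15.43, 15.65 and 15.46 in Creole TN pigs and 15.32, 15.30, 15.39, 15.31 and 14.89 in Creole HS pigs. In F1 pigs this probe gave 14.49, 14.39, 14.92 and 15.34 at TN and 14.99, 13.89, 14.37, 15.42 and 15.26 under HS. The LW levels on it were 14.48, 14.61, 15.18 and 14.95 at TN and 14.87, 14.72, 14.51, 14.84 and 15.003 under HS. Creole HS pigs lay below Creole TN pigs, while temperatures overlapped in the other breeds. The HS minus TN difference was -0.084 ± 0.14 (SE, 95% confidence interval -0.37 to 0.20, adjusted p = 0.741), with 9 of 15 HS arrays below their breed's TN mean, and for O10316 it was 0.10 (adjusted p = 0.72). LW pigs were below Creole pigs on A_72_P020186 by -0.55 (adjusted p = 0.0276), or -0.61 (adjusted p = 0.0144) without Creole HS replicate 5, and the call was lost without any of 3 other arrays (up to 0.0584). All 9 LW arrays lay below the Creole mean at their temperature. Group means ran from 15.51 ± 0.12 (SD, n = 3) in Creole TN to 14.78 ± 0.44 (SD, n = 4) in F1 TN. The F1 and LW groups did not differ beyond their spread. On A_72_P645767 the LW minus Creole difference was -0.44 (adjusted p = 0.0558), and -0.47 (adjusted p = 0.0405) without Creole HS replicate 5. A mean over all 5 PDHA1 probes therefore mixed unlike readings, and on that mean PDHA1 changed under HS by -0.26 (adjusted p = 0.0159).

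DLAT carries the lipoyl groups and forms acetyl-CoA in the core of the complex. On A_72_P177491, DLAT levels were 13.09, 13.64 and 13.19 in Creole TN pigs and 13.000, 12.92, 12.98, 12.96 and 11.66 in Creole HS pigs. F1 pigs had DLAT levels of 13.01, 12.45, 13.48 and 12.30 at TN and 12.62, 11.98, 12.19, 13.21 and 13.04 under HS. LW pigs read 12.77, 13.06, 12.67 and 12.61 at TN and 11.93, 11.95, 11.89, 12.15 and 12.09 under HS. As for PDHB, TN and HS did not overlap in Creole or LW and overlapped in the cross. DLAT was lower in HS by -0.52 ± 0.16 (SE, 95% confidence interval -0.86 to -0.19, adjusted p = 0.0345), with 13 of 15 HS arrays below the TN mean of their breed. Leaving out any of 10 arrays singly ended this call, with the largest adjusted p, 0.0694, when LW TN replicate 2 was left out. Its other probes changed by -0.50 (adjusted p = 0.0884) for O14151 and -0.48 (adjusted p = 0.0512) for A_72_P468917, the DLAT probe shown above. In LW, DLAT was below Creole by -0.62 ± 0.20 (SE, 95% confidence interval -1.03 to -0.21, adjusted p = 0.0362), a call also lost without any of 10 arrays, up to 0.0783 without Creole TN replicate 2, and with slide as a fixed block (0.0615). Without Creole HS replicate 5 the breed difference was -0.77 (adjusted p = 0.00322), O14151 passed too (0.0251), and the temperature difference -0.45 (adjusted p = 0.0364). Of the neighbours in the order of group means, from 13.30 in Creole TN down to 12.001 in LW HS, only F1 HS (12.61) and LW HS differed by more than the larger SD.

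DLD reoxidises the lipoyl groups, and it serves the oxoglutarate and branched-chain oxoacid dehydrogenases and the glycine cleavage system as well. On A_72_P571624, DLD levels were 13.31, 13.39 and 13.34 in Creole TN pigs and 13.23, 13.28, 12.92, 13.05 and 12.53 in Creole HS pigs. F1 pigs read 12.98, 12.98, 13.33 and 12.59 at TN and 12.69, 12.39, 12.70, 13.01 and 12.93 under HS for DLD. In LW pigs DLD was at 12.74, 13.17, 12.97 and 12.91 at TN and 12.27, 11.98, 12.35, 12.19 and 12.68 under HS. The temperatures were separated in Creole and LW, by narrow gaps, and overlapped in the cross. DLD changed under HS by -0.41 ± 0.098 (SE, 95% confidence interval -0.62 to -0.21, adjusted p = 0.00761), with 14 of 15 HS arrays below the TN mean of their breed. All 10 tested DLD probes had lower means in HS and 7 of them passed the threshold, including the probe shown above, A_72_P616219, at -0.59 (adjusted p = 0.00697). The 3 that did not pass were A_72_P648642 at -0.77 (adjusted p = 0.0618), A_72_P643339 at -0.16 (adjusted p = 0.305) and O10194 at -0.12 (adjusted p = 0.221), the last well above background on 14 arrays only. LW pigs were below Creole pigs by -0.58 ± 0.12 (SE, 95% confidence interval -0.82 to -0.33, adjusted p = 0.003), and 9 of the 10 DLD probes passed in that direction. One of the 9, O10194, was near the threshold (adjusted p = 0.0474), and leaving out any of 17 arrays singly ended its call. Creole HS replicate 5 was 1 of them (0.0625), and in that fit A_72_P643339 passed instead (0.0148). DLD group means ran from 13.35 ± 0.039 (SD, n = 3) in Creole TN to 12.29 ± 0.26 (SD, n = 5) in LW HS. The first and the last step of that order exceeded the larger SD of the neighbours.

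**Figure D1:**
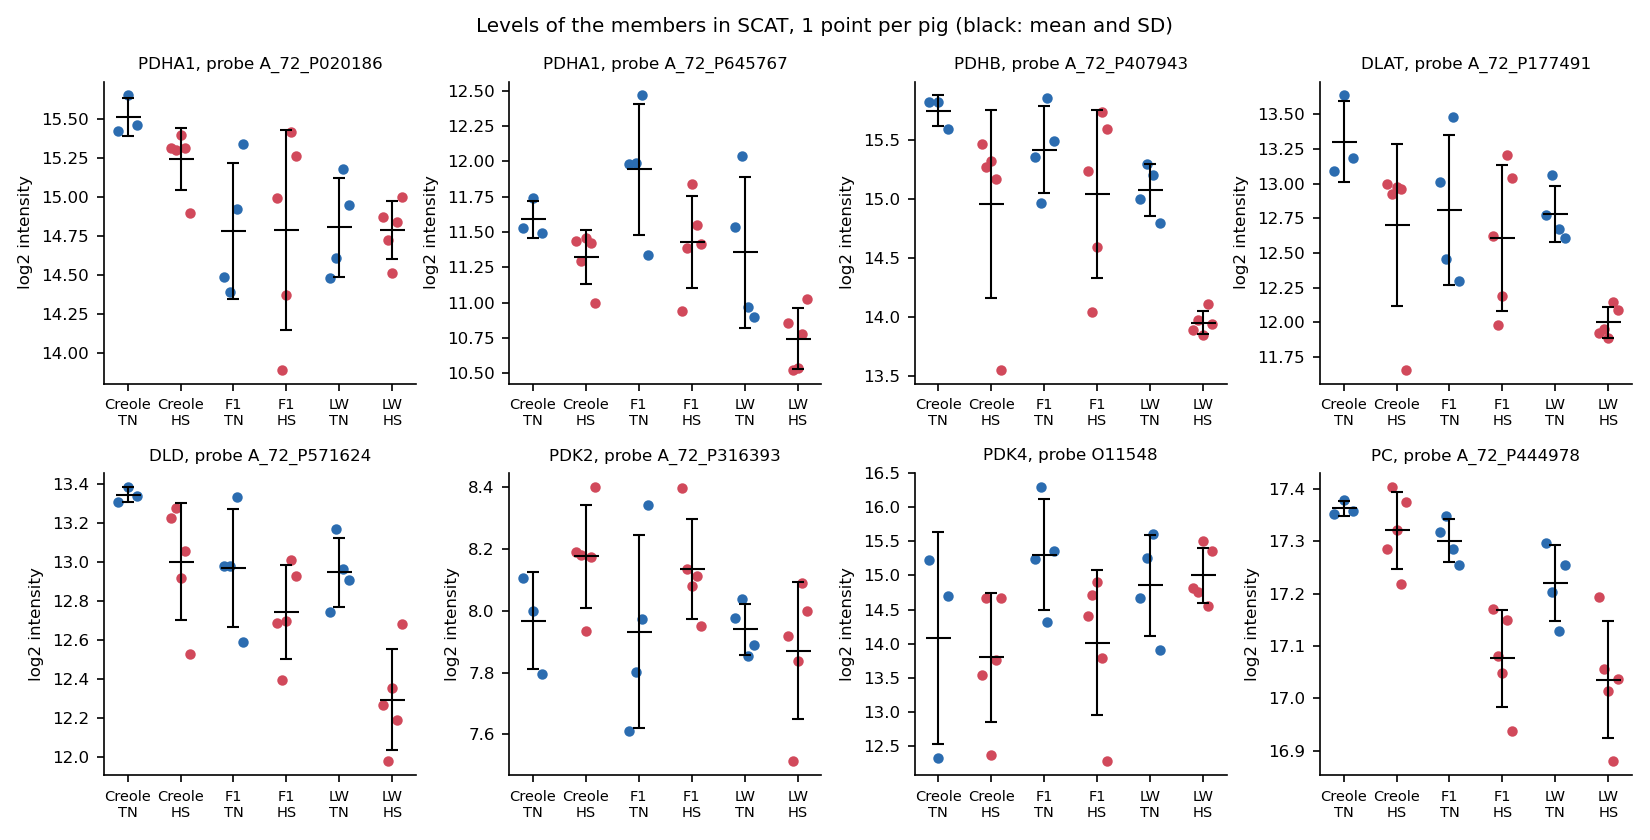
Log2 level of the representative probe of each of the 7 genes on every array (y axis, separate scale per panel) by breed and temperature (x axis), with points for pigs and bars for group means and SD. A further panel shows PDHA1 on A_72_P645767, which is not its representative probe. The group means of PDHB, DLAT and DLD are lowest in LW HS pigs, PC varies little, and PDK4 has the widest spread within groups. The lowest single points of PDHB and DLAT are those of Creole HS replicate 5.

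PDK2, a widely expressed PDH kinase, had no temperature call on any of its 3 probes. On A_72_P316393 its group means ran from 8.18 ± 0.17 (SD, n = 5) in Creole HS to 7.87 ± 0.22 (SD, n = 5) in LW HS, and single arrays read from 7.51 to 8.40. Most neighbouring groups in that order did not differ beyond their spread. PDK2 differed between HS and TN by 0.11 ± 0.079 (SE, 95% confidence interval -0.055 to 0.27, adjusted p = 0.4), and by -0.051 on the mean of its probes. A_72_P383353 and O11322 gave -0.12 (adjusted p = 0.318) and -0.14 (adjusted p = 0.151), in the opposite direction, and their correlation with A_72_P316393 over the 26 arrays lay between -0.16 and 0.15. Between breeds, A_72_P383353, the PDK2 probe shown above, was lower in LW by -0.36 ± 0.094 (SE, 95% confidence interval -0.56 to -0.17, adjusted p = 0.0113), while A_72_P316393 differed by -0.19 (adjusted p = 0.196) and O11322 by -0.031 (adjusted p = 0.835).

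PDK4, the kinase that responds to nutritional state, varied more between pigs of the same group than 99.1% of the named genes. Its representative probe, O11548, has the same 60 bases as A_72_P576424. PDK4 read 15.23, 12.31 and 14.70 in Creole TN pigs and 13.53, 14.67, 12.36, 13.75 and 14.66 in Creole HS pigs. F1 pigs gave PDK4 levels of 15.24, 16.30, 14.32 and 15.36 at TN and 14.40, 14.71, 14.90, 13.78 and 12.27 under HS. LW pigs had 14.66, 15.25, 15.60 and 13.90 at TN and 14.82, 14.76, 15.51, 14.56 and 15.36 under HS. Temperatures overlapped in all 3 breeds, and the lowest pigs, at 12.27 to 12.36, were found in both Creole groups and in F1 HS. The HS minus TN difference was -0.49 ± 0.35 (SE, 95% confidence interval -1.22 to 0.24, adjusted p = 0.396), with 11 of 15 HS arrays below the TN mean of their breed. All 12 PDK4 probes had estimates between -0.63 and -0.26, with -0.41 (adjusted p = 0.5) for A_72_P227202, shown above, and none passed the threshold. Correlations of the other 11 with O11548 were between 0.94 and 1.00. In LW the same probes lay above Creole by 0.77 to 1.27, and O11548 by 0.998 ± 0.43 (SE, 95% confidence interval 0.11 to 1.89, adjusted p = 0.12), with 8 of 9 LW arrays above the Creole mean of their temperature. None of the 12 passed the threshold there. With slide as a fixed block 3 did, among them A_72_P661167 (adjusted p = 0.00869), and 1 did with slide as a random block. With the red blood cell score as a covariate 5 did, among them O11548 (adjusted p = 0.0474). The temperature-centred LW minus Creole difference of O11548 was 0.11, 2.95 and 1.61 on slides 2, 3 and 4. On slide 5 it was -0.45, and slides 3 and 5 each held 1 Creole array. Group means from 15.31 in F1 TN to 13.80 in Creole HS formed an order in which no neighbours differed beyond their spread.

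PC, which replenishes oxaloacetate, was by representative probe the least variable member between pigs of the same group. Its levels on A_72_P444978 were 17.35, 17.38 and 17.36 in Creole TN pigs and 17.28, 17.40, 17.32, 17.22 and 17.37 in Creole HS pigs. F1 pigs showed PC levels of 17.32, 17.35, 17.28 and 17.25 at TN and 17.17, 17.08, 17.05, 17.15 and 16.94 under HS. PC read 17.30, 17.20, 17.13 and 17.25 in LW TN pigs and 17.19, 17.06, 17.01, 16.88 and 17.04 in LW HS pigs. Only in the cross did all HS pigs lie below all TN pigs. PC was lower in HS by -0.16 ± 0.037 (SE, 95% confidence interval -0.23 to -0.079, adjusted p = 0.00743), a small change with 13 of 15 HS arrays below the TN mean of their breed. The other PC probes changed by -0.13 (adjusted p = 0.107) for A_72_P303224, which ends in the stop codon shown above, and -0.18 (adjusted p = 0.0695) for A_72_P479920. LW pigs were below Creole pigs by -0.23 ± 0.045 (SE, 95% confidence interval -0.32 to -0.14, adjusted p = 0.00206), and 9 of 9 LW arrays lay below the Creole mean of their temperature. From 17.36 ± 0.014 (SD, n = 3) in Creole TN to 17.04 ± 0.11 (SD, n = 5) in LW HS, the steps F1 TN to LW TN and LW TN to F1 HS exceeded the larger SD.

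Counted by probe, 13 of the 38 tested member probes were lower in HS and 0 were higher, against a background of 12.2% of all 44703 probes called in either direction, 7.02% called lower and 5.17% called higher. The 13 were 7 of DLD, 2 of PDHB, 2 of PDHA1, 1 of DLAT and 1 of PC, and 52.6% of member probes had an unadjusted p under 0.05, against 26.9% of all probes. Probes of a gene are not independent readings of it. Counted by representative probe, 4 of the 7 genes (PDHB, DLAT, DLD and PC) were lower and 0 higher, against 7.67% lower and 4.89% higher of the 9967 named genes tested (12.6% in either direction). The median HS minus TN difference was -0.46 over the 38 member probes and 0.0024 over all probes. Slides carried both temperatures, and within each of the 5 slides the breed-centred difference was below 0 for PDHB (-0.46 to -1.21), DLAT (-0.11 to -1.03), DLD (-0.19 to -0.61), PC (-0.07 to -0.27) and PDHA1 on A_72_P645767 (-0.25 to -0.73). It changed sign between slides for PDHA1 on A_72_P020186, for PDK2 and for PDK4. The red blood cell score moved with temperature, and with it as a covariate 0 member probes were called and 528 probes of the array remained called instead of 5447. PDHB then changed by -0.39 (adjusted p = 0.382), DLAT by -0.21 (adjusted p = 0.608), DLD by -0.31 (adjusted p = 0.213), PC by -0.18 (adjusted p = 0.0626) and PDHA1 on A_72_P645767 by -0.50 (adjusted p = 0.128). The part of blood content in these results was not tested. With breed left out of the model 2 member probes were called.

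**Figure D2:**
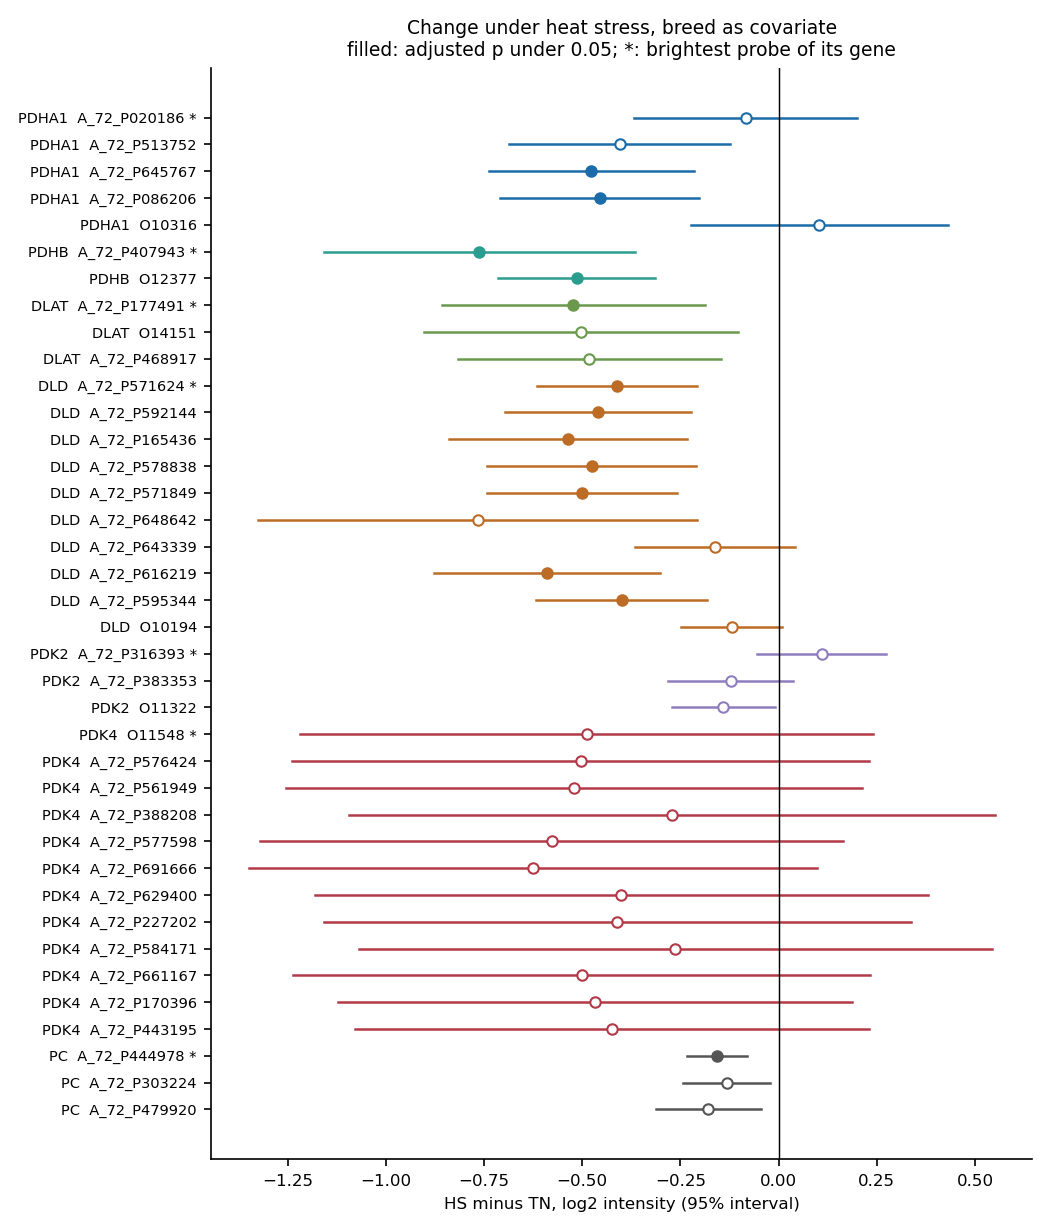
HS minus TN difference in log2 level, adjusted for breed, for each tested probe of the 7 genes (x axis, with 95% confidence intervals) by gene (y axis), filled where the adjusted p was under 0.05. The 13 filled points all lie below 0 and belong to DLD, PDHB, PDHA1, DLAT and PC, and the 12 PDK4 probes have wide intervals that reach across 0.

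Within single breeds, the LW pigs had calls and the others did not. In LW pigs 8 of 38 member probes were lower in HS, against a background of 1.5% of all probes in either direction, 1.09% lower and 0.403% higher. They were 7 DLD probes and the PDHB probe O12377, which changed by -0.67 (adjusted p = 0.0365). DLD on A_72_P571624 changed by -0.65 ± 0.16 (SE, 95% confidence interval -0.98 to -0.32, adjusted p = 0.0393). A_72_P616219, the DLD probe shown above, changed by -1.01 (adjusted p = 0.022), and A_72_P648642 by -1.65 (adjusted p = 0.0427). In LW pigs the difference on the brightest PDHB probe was -1.12 (adjusted p = 0.0693) and that of DLAT -0.78 (adjusted p = 0.143). PDHB passed there under scaling to the 75th percentile (0.0475), with array weights (0.0310), with the skeletal muscle score as a covariate (0.0186) and without Creole HS replicate 5 (0.0139), and DLAT with the skeletal muscle score (0.0477). Each of the other breeds had 0 called member probes, with a background of 0.0716% in Creole and 0.421% in F1, and 6 and 14 of the 38 (15.8% and 36.8%) with an unadjusted p under 0.05 by limma, where all probes had 11.1% and 16.0%. PDHB changed by -0.79 (adjusted p = 0.392) in Creole and -0.38 (adjusted p = 0.597) in F1, and DLAT by -0.60 (adjusted p = 0.457) and -0.20 (adjusted p = 0.766). PC changed by -0.042 (adjusted p = 0.877) in Creole, -0.22 (adjusted p = 0.0817) in F1 and -0.18 (adjusted p = 0.11) in LW. For PDK4 these differences were -0.29 (adjusted p = 0.925), -1.29 (adjusted p = 0.272) and 0.15 (adjusted p = 0.935), the last with the opposite sign, -0.034, under scaling to the 75th percentile. The change was not shown to differ between breeds: in limma's test of the interaction 0 of 38 member probes passed, with 0.00224% of all probes, and 3 (7.89%), all of DLD, had an unadjusted p under 0.05, near the 5.23% of all probes. The 8 calls within LW fell to 0 without LW TN replicate 2 or 3, and to 0 with slide as a fixed block. They fell to between 2 and 4 without any of LW HS replicates 1 to 4 or LW TN replicate 4, and rose to 12 with the skeletal muscle score as a covariate.

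Between breeds, 16 of 38 member probes were lower in LW than in Creole pigs and 0 higher, against 14.3% of all probes called in either direction, 7.43% called lower and 6.89% called higher. The 16 were 9 of DLD, 2 of PDHB, 2 of DLAT and 1 each of PDHA1, PC and PDK2. Without Creole HS replicate 5 the count was 18. By representative probe 5 of the 7 genes were lower in LW (PDHA1, PDHB, DLAT, DLD and PC), against 8.59% of named genes lower and 6.65% higher (15.2% in either direction). The median over the member probes was -0.32 and over all probes 0.0025. Slide 1 held no LW array. On slides 2, 3 and 4 the temperature-centred LW minus Creole difference was -1.25, -1.01 and -0.87 for PDHB, and it was +0.72 on slide 5. For PDHA1 on A_72_P020186 it was -0.54, -1.01 and -0.59, and +0.12 on slide 5. For DLAT it was -0.82, -1.04 and -0.55 on the same 3 slides and +0.49 on slide 5, and for DLD -0.98, -0.70 and -0.24, with +0.03 on slide 5. The single Creole array of slide 5 was Creole HS replicate 5. PC was lower in LW on all 4 slides, by values between -0.18 and -0.33. Between these breeds 3 marker lists had calls. The fibroblast and matrix score was 0.36 higher in LW, with 3 of its 8 genes called higher and 0 lower, and the endothelial score 0.17 higher with 1 of its 7 genes called higher. The adipocyte score was 0.26 lower in LW, with LEP at -1.23 (adjusted p = 0.0438) and CIDEA at -0.31 (adjusted p = 0.0103) called among its 9 genes, and the part of these lists in the members' differences was not tested. The skeletal muscle score differed by -0.85 between LW and Creole with 0 of its 14 genes called, and with it as a covariate the breed calls of DLAT (adjusted p = 0.0892) and of PDHA1 on A_72_P020186 (adjusted p = 0.0683) were lost.

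**Figure D3:**
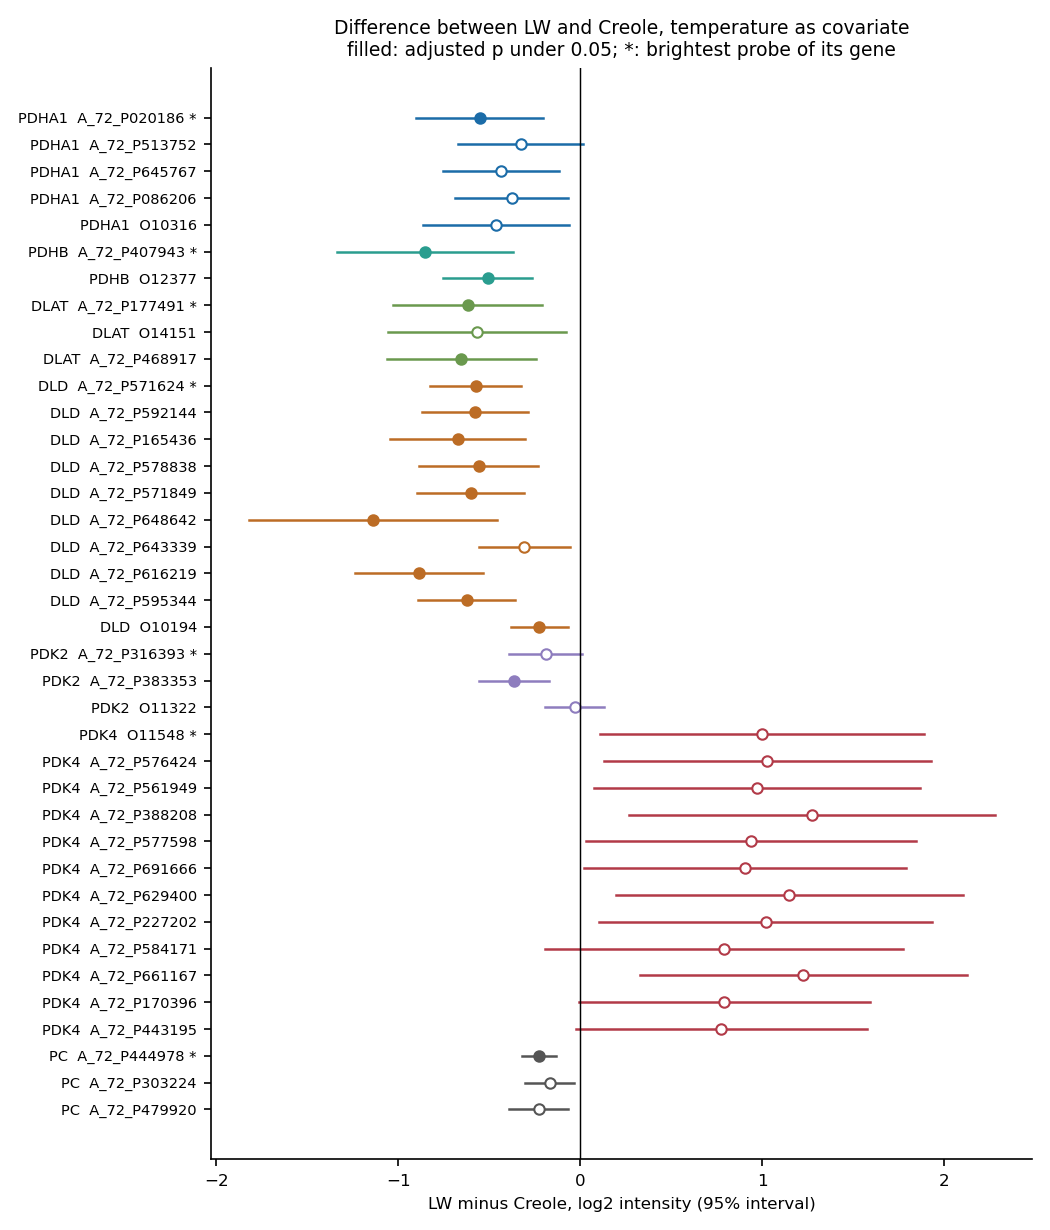
LW minus Creole difference in log2 level, adjusted for temperature, for each tested probe of the 7 genes (x axis, with 95% confidence intervals) by gene (y axis), filled where the adjusted p was under 0.05. The 16 filled points lie below 0, whereas the 12 PDK4 probes lie above 0 and none of them is filled.

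The F1 cross was set against the mean of its parent breeds. None of the 38 member probes passed the threshold in limma, with 0.00671% of all probes, and 3 (7.89%) had an unadjusted p under 0.05, near the 8.69% of all probes. PDHB in F1 pigs differed from the mid-parent value by 0.33 (adjusted p = 0.66), DLAT by 0.042 (adjusted p = 0.964) and DLD by -0.027 (adjusted p = 0.961). On A_72_P645767 PDHA1 stood above it by 0.42 (adjusted p = 0.295), and on A_72_P020186 it stood at -0.29 (adjusted p = 0.581). A test of any breed difference called 14 of 38 member probes, 7 of DLD, 3 of PDHA1, 2 of PDHB and 1 each of PC and PDK2, with a background of 11.3%.

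Within groups, pigs differed on the representative probes of the E1 and E2 genes far more than on that of PC. That PC probe, A_72_P444978, was the brightest member probe, with a mean level of 17.2. With group means removed, its r was 0.59 with A_72_P303224 and 0.03 with A_72_P479920. How the spread depends on brightness was not tested. The pooled within-group SD was 0.507 for PDHB, 0.431 for DLAT, 0.377 for PDHA1, 0.249 for DLD, 0.197 for PDK2 and 0.0797 for PC, and 0.931 for PDK4. The SD was smaller in 95.8% of 9967 named genes than in PDHB, in 93.1% than in DLAT and in 1% than in PC, and the median gene had 0.179. With group means removed, 5 of the 21 pairs of members were correlated across the 26 pigs past the threshold, by Pearson and by Spearman, and 4 of them were positive. PDHB and DLAT had r = 0.89 (permutation p = 0.00016, adjusted p = 0.00168) and rho = 0.84 (permutation p = 0.00018, adjusted p = 0.00378). DLAT and DLD had r = 0.77 (permutation p = 0.0001, adjusted p = 0.00168) and rho = 0.67 (permutation p = 0.00048, adjusted p = 0.00504). For PDHA1 (A_72_P020186) and PDHB, r = 0.72 (permutation p = 0.00091, adjusted p = 0.00637) and rho = 0.64 (permutation p = 0.00469, adjusted p = 0.0246) were found. PDHB and DLD had r = 0.66 (permutation p = 0.00295, adjusted p = 0.0155) and rho = 0.54 (permutation p = 0.0104, adjusted p = 0.0437), and r fell to 0.44 without Creole HS replicate 5 and F1 HS replicate 2. The negative pair was DLAT and PDK4, with r = -0.59 (permutation p = 0.00737, adjusted p = 0.031) and rho = -0.66 (permutation p = 0.00195, adjusted p = 0.0136), and r was -0.55 without Creole HS replicate 5 and F1 TN replicate 3. Under scaling to the 75th percentile its adjusted p was 0.0537 by the same permutation test. Without the 2 farthest arrays r was 0.80 for PDHB and DLAT, 0.66 for DLAT and DLD and 0.58 for PDHA1 and PDHB. PC had no pair past the threshold, and its r with the other members lay between -0.23 and 0.20. Each of these values rests on the same arrays and 1 probe per gene. For PDHA1 that matters, since A_72_P020186 did not follow A_72_P513752, A_72_P645767 and A_72_P086206. Its r with them was -0.40, -0.21 and -0.27 with group means removed. Pairs of those probes with other members were not tested. The PDK2 probe A_72_P316393, found by its description, did not follow the other PDK2 probes either. With group means removed, its r was 0.057 with A_72_P383353 and -0.0083 with O11322, which were not tested in pairs.

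**Figure D4:**
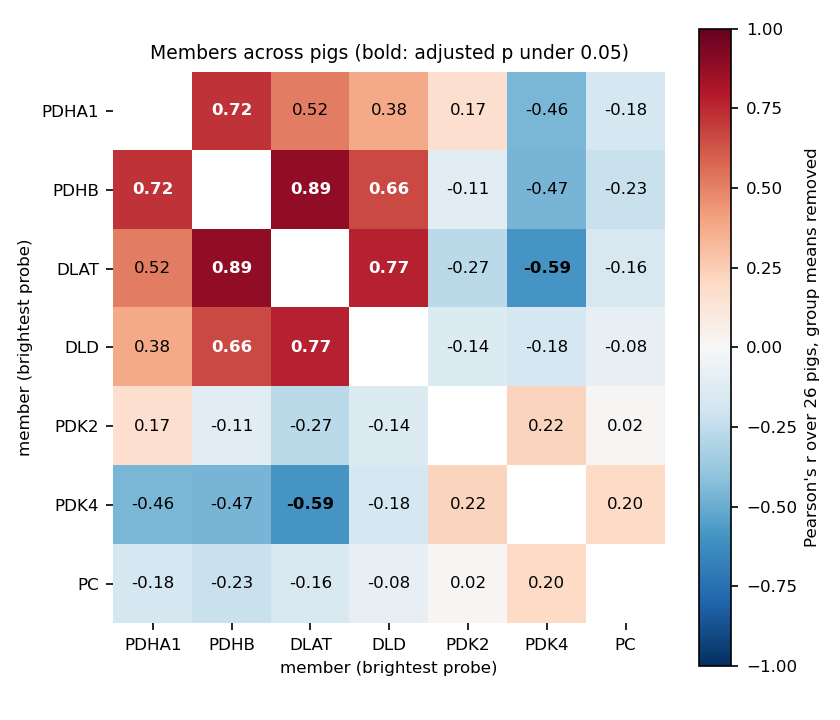
Pearson r between the 7 genes (both axes, representative probe of each) over the 26 pigs with group means removed, as a heatmap with the value in each cell and adjusted p under 0.05 in bold. PDHA1 (on A_72_P020186 only), PDHB, DLAT and DLD form a block of positive values, with 0.89 for PDHB and DLAT. PDK4 has negative values with these genes, of which -0.59 with DLAT is in bold.

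The genes whose levels were most like those of a member over the 26 arrays were taken from 9966 other named genes by Pearson r, as a description. For PDHB they included ME1 (0.95), cytosolic malic enzyme, and SLC25A1 (0.95), the mitochondrial citrate carrier. DLAT was most like ACSS2 (0.97), the cytosolic acetyl-CoA synthetase, and PSMD14 (0.96), a proteasome subunit. With group means removed, DLAT and ACSS2 still had r = 0.97, and the genes near PDHB included ACLY (0.92), the ATP citrate lyase gene, and ACSS2 (0.90). DLD was most like IMMT (0.93), a protein of the inner mitochondrial membrane, SDHB (0.90), a subunit of succinate dehydrogenase, and TKT (0.90), transketolase. PDK4 was most like ANGPTL4 (0.92), a secreted inhibitor of lipoprotein lipase, CPT1A (0.89), which brings fatty acids into mitochondria, and BIVM (0.89). After removal of group means TXNIP, a thioredoxin-binding protein, came first for PDK4 (0.93). The nearest genes of the remaining members were less alike, with LAGE3 (0.77) for PDHA1, CLCC1 (0.78) for PDK2 and PSMC1 (0.76) for PC.

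Related genes were read by their representative probes in 7 lists, against 7.67% of named genes called lower and 4.89% called higher in HS. Citrate export and acetyl-CoA use had all 10 genes measured, all 10 with a lower mean in HS, 4 called lower and 0 higher, and a median of -0.33. CS, citrate synthase, changed by -0.33 (adjusted p = 0.000447), MDH2, mitochondrial malate dehydrogenase, by -0.50 (adjusted p = 0.00355) and SLC25A1 by -0.63 (adjusted p = 0.0287). Among other complexes that use DLD or biotin, 5 of 11 measured genes were lower and 0 higher (median -0.22), with PCCA and PCCB, the subunits of propionyl-CoA carboxylase, at -0.34 (adjusted p = 0.0019) and -0.22 (adjusted p = 0.0155), and BCKDHA, of the branched-chain complex, at -0.26 (adjusted p = 0.0259). In the list of mitochondrial import and outer membrane, 5 of 10 were lower and 0 higher (median -0.10), among them the porins VDAC1 at -0.34 (adjusted p = 0.00416) and VDAC2 at -0.26 (adjusted p = 0.00975) and the import pore TOMM40 at -0.23 (adjusted p = 0.0169). Pyruvate supply and other fates had 2 of 12 lower and 0 higher (median -0.17). ME1, which returns malate carbon to pyruvate with NADPH, changed by -1.30 (adjusted p = 0.00141), and GPT, alanine aminotransferase, by -0.35 (adjusted p = 0.0118). With the red blood cell score as a covariate, 0 of the 14 related genes named here and below with a call under HS remained called, with adjusted p from 0.0547 for CS to 0.548 for SLC25A1.

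Other subunits and regulators of the PDH complex had 1 of 5 measured genes lower and 0 higher (median -0.06), and that gene was PDHX, the E3-binding protein, at -0.20 (adjusted p = 0.0401), or -0.18 (adjusted p = 0.0573) without Creole HS replicate 5. PDK1 was at -0.26 (adjusted p = 0.133) and PDK3 at 0.11 (adjusted p = 0.482) under HS. In the list of cofactor handling 0 of 10 were lower and 1 was higher (median -0.08), SLC19A2, a thiamine transporter, at 0.26 (adjusted p = 0.0467), which had an adjusted p of 0.0526 under scaling to the 75th percentile and 0.0673 without Creole HS replicate 5. Of 16 factors and genes linked to PDK4 control, 0 were lower and 1 was higher (median -0.11). That gene was FOXO3, a forkhead factor, at 0.21 (adjusted p = 0.015) on its brightest probe, and 1 of its 3 probes had this direction. NR3C1, the glucocorticoid receptor, differed by 0.16 (adjusted p = 0.0643) and UCP3, a mitochondrial uncoupling protein, by -0.46 (adjusted p = 0.0852). With scaling to the 75th percentile the calls were 2 lower and 0 higher for cofactors and 1 lower and 0 higher for genes linked to PDK4 control, and the medians of all 7 lists stayed below 0 under HS. Between breeds, against 8.59% of named genes lower and 6.65% higher in LW, the same lists had 4 of 10 lower and 0 higher for citrate export and acetyl-CoA use (median -0.39), 7 of 11 and 0 for DLD or biotin complexes (median -0.29), 4 of 10 and 0 for import and outer membrane (median -0.14), 2 of 12 and 1 for pyruvate fates (median -0.06), 1 of 5 and 0 for PDH regulators (median -0.12), 1 of 10 and 0 for cofactors (median -0.17), and 2 of 16 lower and 2 higher for genes linked to PDK4 control (median 0.03, and -0.05 with scaling to the 75th percentile). PDK1 was the gene called among the PDH regulators, at -0.48 (adjusted p = 0.0189).

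**Figure D5:**
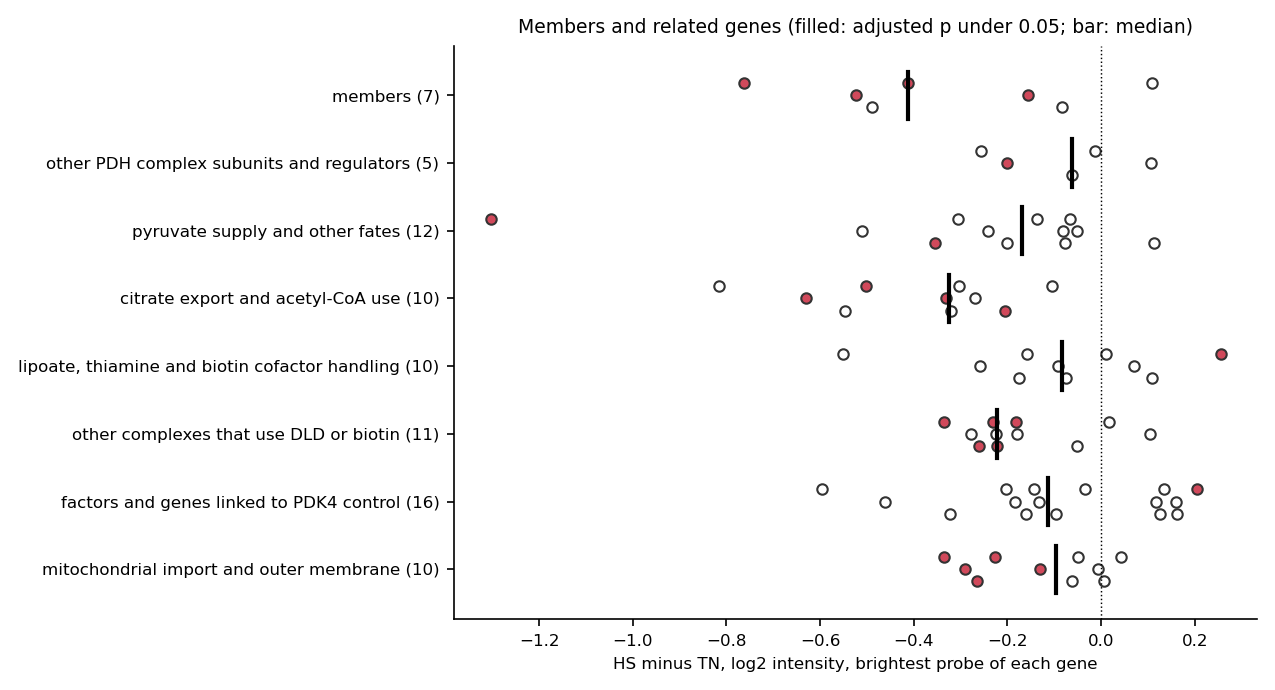
HS minus TN difference in log2 level (x axis) of the representative probe of each of the 7 genes, in the first row, and of the related genes in their 7 lists, with the number measured in brackets (y axis). Filled points had an adjusted p under 0.05 and bars mark medians, and all points for citrate export and acetyl-CoA use lie below 0.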

How the data were processed

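Subcutaneous adipose tissue RNA from 26 pigs was labelled with Cy3 and hybridised on a porcine one-colour Agilent array, 1 array per pig on 5 slides. Per the file headers, scanner intensity values came from Agilent Feature Extraction 10.10.1.1 and are not scaled between arrays. A second deposited table holds log2 values that the authors made by quantile normalisation of median spot intensity. It was used as an alternative and differed from the values used here by a median of 0.00793. Here log2 of the quantile-normalised median spot intensity was computed in R 4.3.3, with no background correction. Non-uniform spots were set to missing, which removed 1 value among the member probes, and repeated spots were averaged per probe. The filter kept the 44703 of 60305 probes flagged as well above background on 8 arrays or more.

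Probes were named by accession (9604), by symbol (14312) or by a synonym (207) through RefSeq tables of assembly Sscrofa11.1, and 36179 were not named. Coordinates were not used, and the strand and the untranslated regions of probes were not checked. Groups came from the sample titles, and replicates were numbered in accession order. limma 3.58.1 was fitted with breed and temperature, or with 6 group means, and eBayes with an intensity trend. Pen, litter, father, mother and the day of slaughter within a temperature are not in the labels and were not modelled. Where pigs share these the p-values may be too small. In the paper, pigs of the same pen were of the same breed and were slaughtered at the same temperature. Correlations between members and marker scores used 100000 permutations within groups or breeds. The scripts were tested on simulated data.

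The text names all probes of the 7 genes, with the brightest tested probe as representative, up to 3 genes with the smallest adjusted p in each related list, and up to 3 genes most like each member, 1 of which is not reported here. Members, lists and tests were chosen with earlier results of these data known. Alternatives covered scaling, background correction, the deposited table, filters, covariates, slide, array weights, the intensity trend, gene means and leaving out each of 26 arrays. Other scalings of the marker scores and of the correlations were chosen after seeing the data.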

Additional observations from a re-analysis of the deposited data

Results flagged for a closer look

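In 40 groups of 4 or 5 arrays (the 7 representative probes and PDHA1 A_72_P645767), 3 values lay far from the others of their group by Dixon's test, where chance flags about 1 in 20 groups. All 3 came from the same array, Creole HS replicate 5. PDHB A_72_P407943 read 13.56 there, and the other 4 Creole HS pigs read 15.17 to 15.47. DLAT A_72_P177491 read 11.66 against 12.92 to 13.00. PDHA1 A_72_P020186 read 14.89 against 15.30 to 15.39.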

How the results depend on the processing

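The count of member probes lower in HS was 13, and across the alternatives it lay between 0 and 16, with 2 when breed was left out of the model and 0 with the red blood cell score as a covariate. Within LW it was 8, and it was 0 with slide as a fixed block and 0 with the red blood cell score as a covariate. The LW minus Creole count was 16 and fell to 8 with temperature left out. The count for any breed difference was 14, with 4 when temperature was left out and 9 with the skeletal muscle score as a covariate. When 1 array was left out at a time, these counts ran from 12 to 16, from 0 to 9 (0 without LW TN replicate 2 or 3), from 12 to 19 and from 8 to 17 (8 without LW HS replicate 3), and the other counts stayed at 0 in all 26 such fits.

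Values of probes that were not called changed sign as follows. For PDHA1 A_72_P020186 the HS minus TN difference was 0.16 with the red blood cell score as a covariate, and within LW it was 0.36 with that score, 0.18 with slide as a fixed block, 0.0074 with slide as a random block, 0.018 with array weights and 0.0044 with normexp background correction (-0.12 to 0.11 with 1 array left out). For PDK2 A_72_P316393 it was -0.051 on the mean of its probes, and within LW 0.0043 with the skeletal muscle score (-0.12 to 0.022 with 1 array left out). PDK4 O11548 within LW was at -0.034 with scaling to the 75th percentile, -0.81 with the red blood cell score and -0.27 with slide as a fixed block (-0.17 to 0.40 with 1 array left out). PDK2 O11322 between LW and Creole ran from -0.059 to 0.016 with 1 array left out. The cause was not tested.

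With scaling to the 75th percentile, the red blood cell score differed by -0.33 (adjusted p = 0.0542), the fibroblast and matrix score by 0.21 (0.0840), and the r of DLAT and PDK4 was -0.55 (permutation test, adjusted p = 0.0537). Pairs far from the threshold changed sign under that scaling: 0.086 for DLAT and PC, 0.062 for DLD and PC, 0.028 for PDHA1 and PC, -0.0094 for PDHA1 and PDK2 and 0.10 for PDHB and PC. PC and PDK2 had -0.042 with normexp. Counts of probes do not exist for the means over the probes of a gene.

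No paired analysis was possible because the labels give no replicate numbers and no pen or litter. Creole TN had 3 arrays, and the interval was widest for PDK4, whose within-group SD was 0.931.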
